A study of Homo sapiens with 12 samples.

Results

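The p53 target genes described here are 30 genes that are commonly used as direct transcriptional targets of the tumour suppressor p53, chosen by symbol and matched to Ensembl identifiers. All 30 were found among the 60708 gene rows of the deposited files, and 29 passed the low-count filter that left 15388 tested genes. Messenger RNA had been sequenced from 4 clonal lines of hTERT RPE-1, a human line of retinal pigment epithelium that telomerase keeps dividing. LmnB1_16 and LmnB1_6 overexpressed mCherry-LmnB1, a fusion with lamin B1, which forms filaments under the nuclear envelope, and mCherry_4 and mCherry_3 overexpressed the fluorescent protein mCherry alone. All 4 lines were grown with hygromycin B and were given 0.05 ug/mL doxycycline over 24 hours, and each gave 3 libraries labelled as biological replicates. Each line is 1 clone, so a construct is represented by 2 clones, and its 3 libraries repeat that clone rather than the construct. The sources used here do not name the promoter that drives the constructs, and an untreated culture was not analysed here.

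The p53 protein is kept low in unstressed cells by MDM2 and MDM4, and is stabilised after DNA damage, ribosomal stress or oncogene activity. It then binds paired decamer motifs near its target genes, whose products halt the cell cycle, repair DNA, adjust metabolism or start apoptosis, while MDM2 and PPM1D feed back on p53 itself. Through CDKN1A (p21), p53 also lowers many cell cycle genes that the DREAM complex represses. Telomerase-immortalised RPE-1 cells are widely used as a line with a working p53 pathway.

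The promoter sequences show which members carry a p53 motif next to the start, so that the values below can be read against it. RefSeq promoters (GRCh38.p14, 250 bases before to 50 after the start, 300 in all) were available for 25 of the 30 members. None was available for GADD45A, PHLDA3, RRM2B, TNFRSF10B and TP53INP1. The p53 response element consensus, a run of 20 bases made of adjoining decamers of 10, was searched with at most 2 mismatches outside the fixed C and G of each decamer. The consensus is a palindrome, so both strands give the same matches. It was found for 4 of the 25 members (16%), against 98 of all 27305 genes in that table (0.359%). Counted by window, since a gene can have several starts, it was in 5 of 36 member windows (13.9%) and 100 of all 35116 (0.285%). The capitals mark the match, and 5 bases are shown on either side, all on the plus strand. They lie at chr15:88621301-88621330, chr11:47214964-47214993, chr10:88991304-88991333 and chr12:68808918-68808947 in the order printed.
AEN: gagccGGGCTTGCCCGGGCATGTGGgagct
DDB2: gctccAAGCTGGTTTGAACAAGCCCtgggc
FAS: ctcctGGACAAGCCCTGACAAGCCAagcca
MDM2: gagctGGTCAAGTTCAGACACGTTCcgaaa
The matches held 2 mismatches in AEN, FAS and MDM2 and 1 in DDB2. Relative to the start they covered positions -34 to -15 in AEN, -5 to 14 in DDB2 and -122 to -103 in FAS. In MDM2 the same bases fell in the windows of 2 RefSeq starts, at -94 to -75 and -101 to -82. A match describes the letters of this window only.

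Libraries held between 20.6 and 29.5 M estimated counts, and no libraries of a clone agreed within sampling noise (chi-square per degree of freedom of at least 3.78). LMNB1, the gene in the construct, averaged 3374 ± 273 CPM (counts relative to the TMM-adjusted library size) in LmnB1_16 and 3976 ± 164 in LmnB1_6, against 161 ± 7.29 in mCherry_4 and 84.98 ± 7.12 in mCherry_3 (SD, n = 3 each). Both LmnB1 clones were far above both mCherry clones. The gene-level counts do not separate reads of the endogenous gene from reads of the construct. Of 11 retinal pigment epithelium markers, RPE65 and TYR had 0 counts in all libraries, and the list summed to 592 to 881 CPM in the LmnB1 libraries and 910.4 to 1373 in the mCherry libraries. LmnB1_6 stood apart in the pigment epithelium transcription factors MITF and OTX2. MITF had 5 counts in the 3 LmnB1_6 libraries together, against 2130 in LmnB1_16, 3414 in mCherry_4 and 4754 in mCherry_3. OTX2 had 0, against 1052, 776 and 1024. Other markers of the list differed in direction. In LmnB1_6 over mCherry_4, PMEL and SERPINF1 were called higher and KRT8, KRT18, MITF and OTX2 lower (all genes 17.1% and 20.1%). Over mCherry_3, SERPINF1 was called higher and KRT8, KRT18, MITF, OTX2 and PMEL lower (all genes 26% and 26.8%). Between the constructs, SERPINF1 was called higher in LmnB1 and KRT8 and KRT18 lower (all genes 8.58% and 9.25%). Lists of 3 markers of other cells summed to 42.9 to 80.6 CPM (LmnB1) and 66.3 to 88.6 CPM (mCherry) for leukocytes, 4.42 to 8.11 and 3.76 to 15.95 for endothelium, 25.04 to 94.5 and 55.5 to 152 for muscle (MYOD1 under 10 counts), and 256 to 492 and 149 to 287 for neurons (RBFOX3 under 10 counts, SNAP25 and TUBB3 called higher in LmnB1). The part of these lists in the results below was not tested. The mCherry_3 libraries stood apart: of 20 cell cycle genes repressed through DREAM, 18 were called higher in each of LmnB1_16, LmnB1_6 and mCherry_4 than in mCherry_3, where 22.5%, 26% and 19.9% of all genes were. In bulk RNA, fewer expressing cells and less RNA per cell cannot be told apart.

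The members spanned a wide range of abundance per transcript length. By the mean TPM (transcript abundance scaled for length and depth) of all 12 libraries, the kinase gene PLK2 (251), the pore-forming apoptosis gene BAX (221) and CDKN1A (217) were highest. TNFRSF10B (99.5), CCNG1 (96.3) and GADD45A (94.9) followed, and the lowest that were tested were BBC3 (5.54), BTG2 (2.52) and SPATA18 (1.17). GDF15, a secreted cytokine gene, was the member that did not pass the filter. It had 34 counts in all, with 7, 2 and 7 in LmnB1_16, 5, 2 and 4 in LmnB1_6, 0, 0 and 3 in mCherry_4 and 1, 2 and 1 in mCherry_3, and is not compared further.

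**Figure D1:**
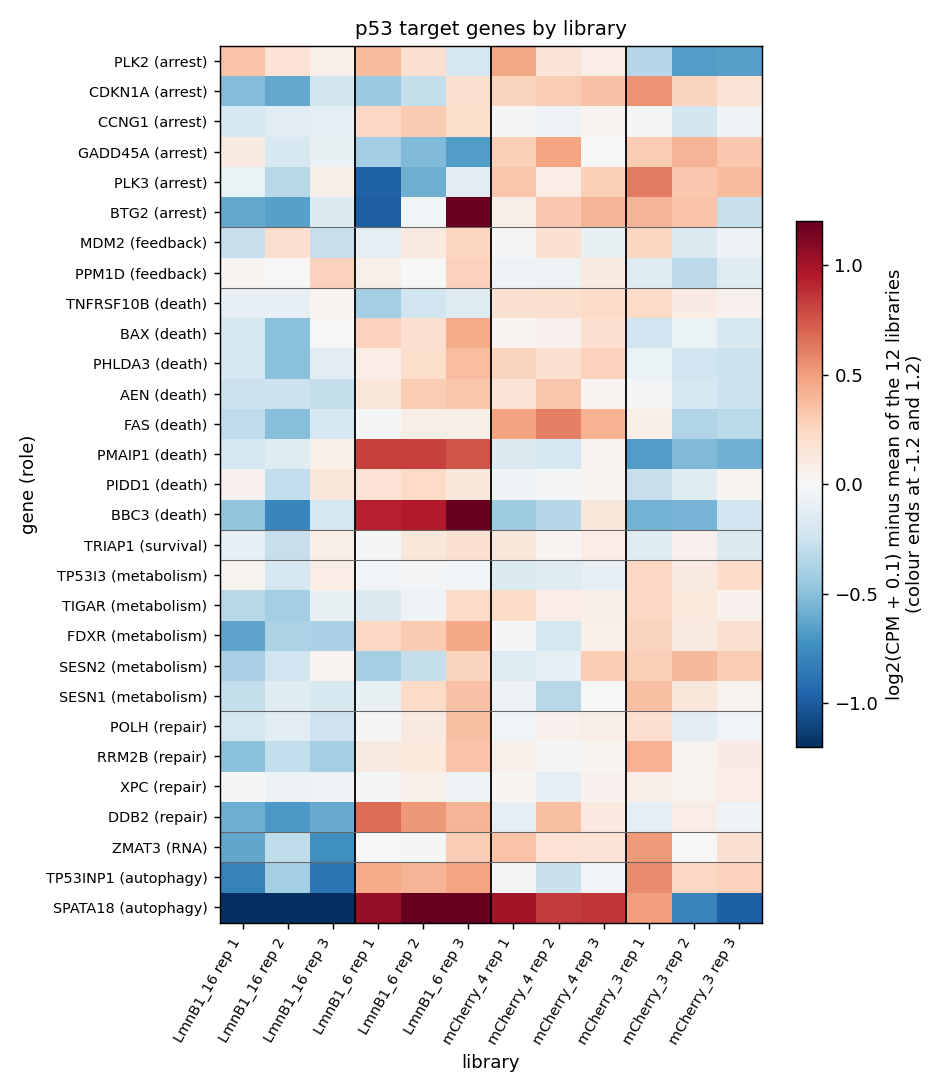
Each row is a p53 target gene with its role, each column a library in the order LmnB1_16, LmnB1_6, mCherry_4, mCherry_3, and colour is log2(CPM + 0.1) minus the gene's mean over the 12 libraries, with red above and blue below that mean. Most rows are blue in LmnB1_16, while PMAIP1, BBC3, DDB2 and SPATA18 are red in LmnB1_6.

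The comparison of construct asks how overexpressed lamin B1 relates to the expression of these genes. CDKN1A, GADD45A, PLK3 and TNFRSF10B fell in LmnB1 libraries and PMAIP1 rose, by edgeR's quasi-likelihood test on 6 against 6 libraries at an adjusted p under 0.05. That is 5 of 29 members (17.2%), and the share of all tested genes called in this comparison was 17.8%, so the members were called about as often as other genes. By direction, 1 member was higher, against 8.58% of all genes, and 4 were lower, against 9.25%. The median log2 fold change of the members was -0.04, with 11 positive and 18 negative, and that of all tested genes was 0.00. The libraries of the constructs did not overlap for 2 members, TNFRSF10B and PLK3, both lower in LmnB1, where 8.66% of all genes were separated either way and 4.85% with LmnB1 lower. Without clone LmnB1_6, 0 members were higher and 9 lower, beside 3.38% and 5% of all genes. Without LmnB1_16, 5 were higher and 4 lower (all genes 14.2% and 17.6%). Without mCherry_3, 0 were higher and 2, FAS and TNFRSF10B, lower (all genes 1.79% and 2.53%), and without mCherry_4 3 were higher and 6 lower (all genes 17% and 15.5%). Without LmnB1_6 replicate 3, 0 were higher and 8 lower (all genes 5.44% and 6.17%), with BTG2, SESN2, TIGAR and ZMAT3 added to the 4 named above. Without LmnB1_16 replicate 2, BBC3 was also called higher (all genes 8.54%). With counts summed per clone, 2 clones against 2, edgeR called 0 members and 0 of 15388 genes, with 642 genes at an unadjusted p under 0.05, among them CDKN1A, GADD45A and PLK3. With clone as a random effect in limma, 0 members and 163 genes were called, and 5 members and 2327 genes had an unadjusted p under 0.05.

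Among the 6 cell cycle arrest genes, 3 were called lower between the constructs, where 9.25% of all genes were. CDKN1A (ENSG00000124762.14, chromosome 6, 36676460 to 36687339, plus strand), which encodes the cyclin-dependent kinase inhibitor p21, stood at 174, 163 and 214 CPM in LmnB1_16 and 183, 204 and 286 CPM in LmnB1_6, against 299, 308 and 319 CPM in mCherry_4 and 363, 301 and 280.1 CPM in mCherry_3. The constructs overlapped only through the highest LmnB1_6 library and the lowest mCherry_3 library. CDKN1A was 1.53-fold lower in LmnB1 (log2 fold change -0.61 ± 0.12 SE, edgeR adjusted p = 0.00766). It was not called without clone mCherry_3 (adjusted p from 0.00203 to 0.0615 over the 4 clones left out in turn).

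GADD45A (ENSG00000116717.13, chromosome 1, 67685061 to 67688338, plus strand), a stress gene whose product binds PCNA and restrains the cell cycle, stood at 70.4, 57.1 and 61.4 CPM in LmnB1_16 and 48.6, 44.99 and 40.9 CPM in LmnB1_6, against 79.2, 90.2 and 65.1 CPM in mCherry_4 and 80.5, 86.4 and 81.6 CPM in mCherry_3. All 3 LmnB1_6 libraries lay below the other 9 (12.3% of all genes did so), and the highest LmnB1_16 library passed the lowest mCherry_4 library. The gene was 1.49-fold lower in LmnB1 (log2 fold change -0.58 ± 0.13 SE, edgeR adjusted p = 0.0109), and was not called without clone LmnB1_6 or clone mCherry_3 (0.000158 to 0.116 over the 4 clones left out).

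PLK3 (ENSG00000173846.13, chromosome 1, 44800225 to 44805990, plus strand), a stress-responsive polo-like kinase gene, stood at 26.7, 22.5 and 29.8 CPM in LmnB1_16 and 14.4, 18.8 and 25.9 CPM in LmnB1_6, against 35.7, 30.1 and 34.6 CPM in mCherry_4 and 43.6, 35.5 and 36.8 CPM in mCherry_3. All 6 LmnB1 libraries were below all 6 mCherry libraries, by a narrow margin at the edge. The difference was 1.57-fold (log2 fold change -0.65 ± 0.15 SE, edgeR adjusted p = 0.0162), and was not called without mCherry_3 (0.00343 to 0.16 over the 4 clones left out).

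The other arrest genes did not pass the test. PLK2, a relative of PLK3, had a log2 fold change of 0.27 ± 0.19 SE (edgeR adjusted p = 0.327), with clone means of 406 and 393 CPM in LmnB1_16 and LmnB1_6 against 419 in mCherry_4 and 243 in mCherry_3. All 3 mCherry_3 libraries lay below the other 9, as they did for 13.8% of all genes. CCNG1, cyclin G1, had a log2 fold change of 0.13 ± 0.09 SE. BTG2, an antiproliferative gene, had -0.24 ± 0.33 SE and ran from 1.93 to 9.03 CPM within LmnB1_6. Without LmnB1_6 replicate 3, its highest library, it was at -0.69 and was called (edgeR adjusted p = 0.0486, against 0.638 with all libraries).

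Of the 8 cell death genes, 1 was called lower and 1 higher between the constructs, beside 9.25% and 8.58% of all genes. TNFRSF10B (ENSG00000120889.13, chromosome 8, 23020133 to 23069179, minus strand), which encodes the death receptor DR5, stood at 185, 185 and 202 CPM in LmnB1_16 and 150.0, 168 and 178 CPM in LmnB1_6, against 225, 227 and 233 CPM in mCherry_4 and 233, 212 and 205 CPM in mCherry_3. No LmnB1 library reached an mCherry library, although the difference was small, 1.25-fold (log2 fold change -0.32 ± 0.07 SE, edgeR adjusted p = 0.00947). It was not called without LmnB1_6 (adjusted p from 0.00117 to 0.0624 over the 4 clones left out).

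PMAIP1 (ENSG00000141682.12, chromosome 18, 59899948 to 59904306, plus strand), which encodes the BH3-only protein NOXA, stood at 38.4, 39.9 and 46.02 CPM in LmnB1_16 and 78.1, 78.1 and 74.3 CPM in LmnB1_6, against 39.2, 38.2 and 45.5 CPM in mCherry_4 and 27.6, 30.5 and 29.5 CPM in mCherry_3. LmnB1_6 was above and mCherry_3 below all other libraries, while LmnB1_16 and mCherry_4 covered nearly the same values. The construct difference was 1.69-fold (log2 fold change 0.75 ± 0.21 SE, edgeR adjusted p = 0.0294). It was no longer called by edgeR without any 1 library of LmnB1_6 or mCherry_3 (highest adjusted p = 0.0681 over the 12 libraries left out in turn, lowest 0.0172) and not without clone LmnB1_6 or clone mCherry_3 (adjusted p from 0.00021 to 0.324 over the 4 clones left out in turn).

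The remaining death genes were not called between the constructs. BBC3, which encodes PUMA, had a log2 fold change of 0.91 ± 0.37 SE (edgeR adjusted p = 0.0995) and FAS, a death receptor gene, -0.33 ± 0.18 SE (0.207). BAX (0.10), PHLDA3 (-0.04), AEN (0.01) and PIDD1 (0.16) were nearer to 0 on the log2 scale; these encode the mitochondrial pore former, an inhibitor of AKT, a nuclease and the scaffold of the PIDDosome. Reads of FAS and of the opposite-strand gene ACTA2, which share 8.94% of the exonic bases of FAS, cannot be told apart because the sources do not state the strand setting.

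No member with a role in feedback, metabolism, repair, RNA or autophagy was called between the constructs. The feedback genes had log2 fold changes of -0.03 ± 0.11 SE for MDM2, the ubiquitin ligase of p53, and 0.21 ± 0.09 SE for PPM1D, a phosphatase. MDM2 averaged 94.02 ± 18.9 and 107 ± 13.9 CPM in LmnB1_16 and LmnB1_6, against 103 ± 10.2 and 102 ± 16.2 CPM in mCherry_4 and mCherry_3 (SD, n = 3 each), and the 95% interval of its LmnB1 over mCherry fold ran from 0.846 to 1.14. That interval takes 6 libraries per construct as independent, although they come from 2 clones, so it does not bound the effect of the construct. The metabolic genes lay between -0.34 for SESN2 and -0.04 for SESN1, the sestrins that restrain mTORC1, with TIGAR, a phosphatase of glycolysis, at -0.26, FDXR, ferredoxin reductase, at -0.08 and TP53I3, a quinone oxidoreductase, at -0.06. TIGAR shares 42.6% of its exonic bases with an overlapping gene model on the same strand, so its counts are less certain. Its difference was -0.0018 on TPM (limma adjusted p = 0.994), its effective length varied 1.38-fold between clones, and it was called lower without LmnB1_6 replicate 3 (edgeR adjusted p = 0.0208). The repair genes were RRM2B, a ribonucleotide reductase subunit (-0.18), the damage sensors XPC (-0.06) and DDB2 (0.01) and the bypass polymerase POLH (-0.04). ZMAT3, an RNA-binding zinc finger gene, had -0.42, TP53INP1, which promotes autophagy, -0.17, the mitochondrial quality control gene SPATA18 0.27 and the survival gene TRIAP1 0.01.

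**Figure D2:**
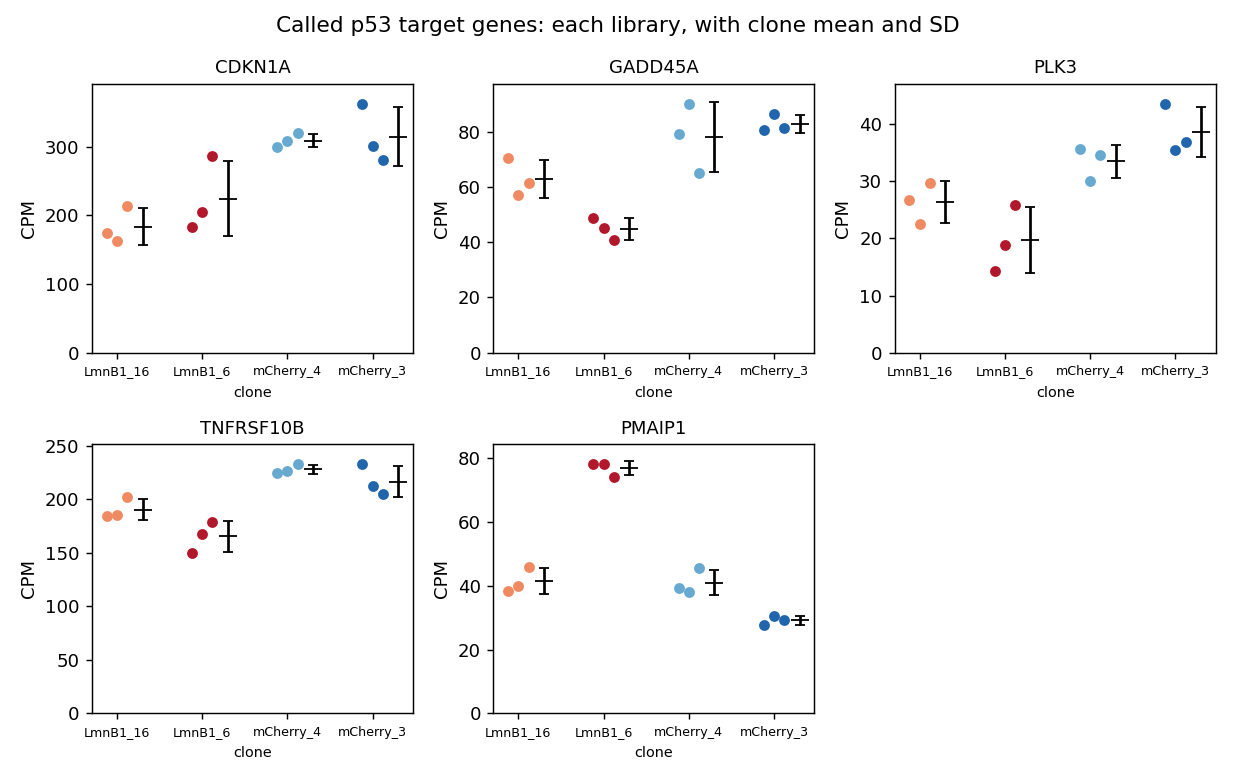
CPM in every library (points, from 0 on a linear axis) with the clone mean and SD to the right, for the 5 members called between the constructs. The PLK3 and TNFRSF10B points of both LmnB1 clones lie below all mCherry points, and the PMAIP1 points of LmnB1_6 lie above all others.

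Each LmnB1 clone was then set against each mCherry clone in a model with the 4 clones as groups. These contrasts share clones, so their values stand side by side only. Against mCherry_4, LmnB1_16 had 0 members higher and 13 lower, where 6.67% and 9% of all genes were called higher and lower. The members' median log2 fold change there was -0.31, against 0.00 for all genes. On TPM with limma 5 members were called lower (all genes 4.41%). Against mCherry_3, LmnB1_16 had 3 higher and 14 lower (all genes 22.5% and 22%; members' median -0.22).

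LmnB1_6 gave another picture. Against mCherry_4 it had 6 members higher and 5 lower (all genes 17.1% and 20.1%), with a median of 0.09. Against mCherry_3 it had 11 higher and 6 lower (all genes 26% and 26.8%), with a median of 0.16. On TPM that median turned to -0.04, with 6 higher and 7 lower (all genes 15.1% and 30.1%). CDKN1A and TNFRSF10B were called lower in all 4 contrasts, as were 2.91% of all genes, and GADD45A and PLK3 in 3 of 4, so that 4 members were lower in at least 3 (all genes 8.31%). PMAIP1 was the member called higher in at least 3 (all genes 6.89%).

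The CDKN1A log2 fold changes were -0.75 for LmnB1_16 over mCherry_4, -0.78 over mCherry_3, and for LmnB1_6 -0.46 over mCherry_4 and -0.49 over mCherry_3. For TNFRSF10B they were -0.26 and -0.18 in LmnB1_16 and -0.46 and -0.39 in LmnB1_6, in the same order of controls. For CDKN1A the clones themselves were not called apart (log2 fold change LmnB1_16 over LmnB1_6 -0.29 ± 0.14 SE, edgeR adjusted p = 0.121), and for TNFRSF10B they were (0.20 ± 0.07 SE, edgeR adjusted p = 0.0287). GADD45A over mCherry_4 was at -0.31 ± 0.10 SE in LmnB1_16 (edgeR adjusted p = 0.0504) and -0.80 ± 0.10 SE in LmnB1_6 (edgeR adjusted p = 1.16e-05).

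The clones of the lamin B1 construct differed in these genes. Between LmnB1_16 and LmnB1_6, 15 of 29 members were lower in LmnB1_16 and 2, GADD45A and TNFRSF10B, were higher, where 16.6% of all genes were called lower and 17.8% higher. The median log2 fold change was -0.37 over the members and 0.00 over all tested genes, with 24 of the members negative. Marker lists moved between these clones too. Of the neuron markers, both tested were lower in LmnB1_16 (the list summed to 256 to 287 CPM, against 462 to 492 in LmnB1_6). Both tested leukocyte markers were higher (74.97 to 80.6 CPM, against 42.9 to 46.1), as were 4 of 7 pigment epithelium markers, with 2 lower (833 to 881 CPM, against 592 to 639). The endothelial marker tested was also higher (7.04 to 8.11 CPM, against 4.42 to 6.41), and so was 1 of 2 muscle markers (80.7 to 94.5 CPM, against 25.04 to 34.5). The part of these lists in the clone difference was not tested. The count of higher members was 1 without LmnB1_6 replicate 1, LmnB1_6 replicate 2 or LmnB1_16 replicate 3 (all genes 15.1%, 15% and 16.1%). LmnB1_16 had the lowest clone mean CPM for 21 of 29 members (72.4%), against 20.9% of all genes, and the highest for 0, against 21.7%. LmnB1_6 had the highest clone mean CPM for 15 members (51.7%), against 30.3% of all genes.

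All 3 LmnB1_16 libraries lay below the other 9 for 8 members, AEN, DDB2, FDXR, POLH, RRM2B, SPATA18, TP53INP1 and ZMAT3, where 4.43% of all genes did so. All 3 LmnB1_6 libraries lay above the other 9 in CPM for 5 members, BBC3, CCNG1, DDB2, PMAIP1 and SPATA18, where 10.9% of all genes did so. On TPM they did so for 4, BBC3, PIDD1, PMAIP1 and SPATA18 (all genes 7.12%). On TPM the LmnB1_16 mean was the lowest for 17 members, against 18.5% of all genes, and the highest for 2, against 23.7%. The LmnB1_6 mean was the highest on TPM for 10 members (all genes 22.9%) and the mCherry_3 mean for 14 (all genes 42.6%). All 3 LmnB1_16 libraries lay below the other 9 on TPM for 7 members (all genes 2.92%), with FAS among them and AEN and POLH not. LMNB1 itself was 1.18-fold lower in LmnB1_16 than in LmnB1_6 (log2 fold change -0.24 ± 0.07 SE, edgeR adjusted p = 0.0117), so the LMNB1 level and the clone cannot be told apart here.

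**Figure D3:**
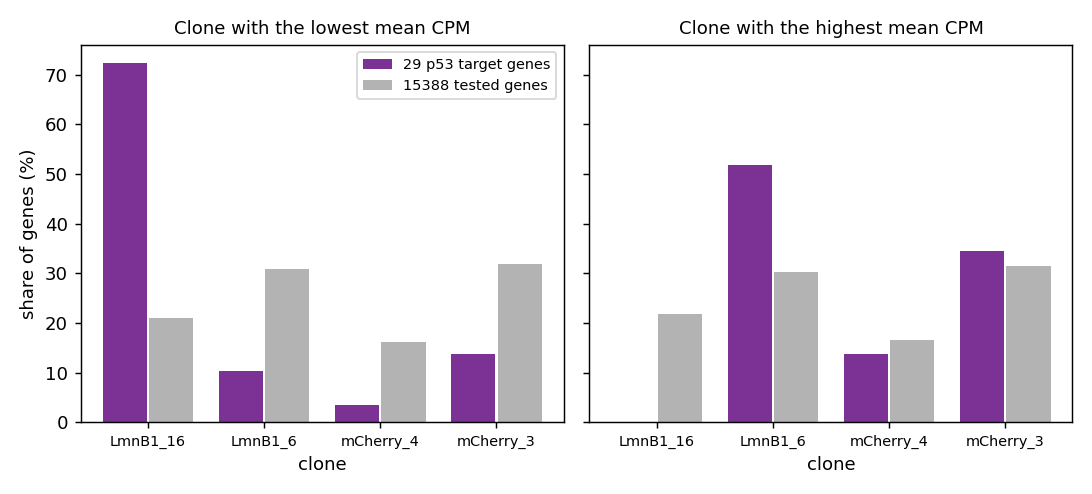
Share of genes (%, bars from 0) whose lowest (left) or highest (right) mean CPM was in each clone, for the 29 p53 target genes (purple) and all 15388 tested genes (grey). LmnB1_16 holds the lowest mean for 72.4% of the members and 20.9% of all genes.

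Between the clones of the control construct, mCherry_4 had 7 members higher and 2 lower than mCherry_3, against 19.9% and 17.4% of all genes. The split depended on the scaling. On total counts 5 were higher and 6 lower (all genes 11.9% and 29.7%), and on TPM 5 and 5 (all genes 9.17% and 21.3%). The members' median log2 fold change was 0.07 with TMM, -0.07 on total counts and -0.09 on TPM, while the median of all genes moved to -0.13 and -0.11. For LmnB1_6 over mCherry_3 the median of all genes moved to -0.12 on TPM. In the contrast of the LmnB1 clones no scaling moved it by more than 0.1, and the members' median was -0.38 on total counts and -0.32 on TPM.

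By role, the members called lower in LmnB1_16 than in LmnB1_6 were 6 of 8 death genes, 3 of 4 repair genes and 2 of 5 metabolic genes. Both autophagy genes, ZMAT3 and 1 of 6 arrest genes were also called lower. Of all genes, 16.6% were called lower there, and differences between roles were not tested. Among the death genes, BBC3 (chromosome 19, 47220822 to 47232766, minus strand) stood at 3.50, 2.80 and 4.21 CPM in LmnB1_16 and 9.46, 9.57 and 14.8 CPM in LmnB1_6, with 3.61, 3.84 and 5.38 CPM in mCherry_4 and 3.27, 3.30 and 4.14 CPM in mCherry_3. LmnB1_6 stood alone above the other 3 clones, which overlapped. BBC3 was 3.20-fold lower in LmnB1_16 than in LmnB1_6 (log2 fold change -1.68 ± 0.22 SE, edgeR adjusted p = 1.02e-05).

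PMAIP1, whose libraries are given above, was 1.85-fold lower in LmnB1_16 than in LmnB1_6 (log2 fold change -0.89 ± 0.08 SE, edgeR adjusted p = 1.78e-07). BAX averaged 78.3 ± 13.2 CPM in LmnB1_16 and 113 ± 10.2 CPM in LmnB1_6, against 97.2 ± 6.79 and 80.9 ± 4.62 CPM in mCherry_4 and mCherry_3 (SD, n = 3 each). Its LmnB1_16 over LmnB1_6 log2 fold change was -0.53, as was that of AEN, with -0.49 for PHLDA3 and -0.37 for FAS. FAS was highest in mCherry_4, at 49.8 ± 3.32 CPM, and all 3 libraries of that clone lay above the other 9, as for 3.28% of all genes. Of the 4 members with the promoter motif shown above, AEN, FAS and DDB2 fell here, where 15 of all 29 members fell. MDM2 did not pass the test (-0.19 ± 0.13 SE, edgeR adjusted p = 0.298). Whether the motif relates to this difference was not tested.

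DDB2 (chromosome 11, 47214465 to 47239240, plus strand), a damage sensor of nucleotide excision repair, stood at 3.02, 2.80 and 2.97 CPM in LmnB1_16 and 7.32, 6.62 and 6.11 CPM in LmnB1_6, with 4.20, 5.88 and 4.96 CPM in mCherry_4 and 4.22, 4.87 and 4.44 CPM in mCherry_3. On CPM, the LmnB1 clones lay on opposite sides of both control clones without overlap. On TPM the 3 LmnB1_6 libraries did not all lie above the other 9. The effective length of DDB2 varied 1.24-fold between clones. DDB2 was 2.28-fold lower in LmnB1_16 than in LmnB1_6 (log2 fold change -1.19 ± 0.16 SE, edgeR adjusted p = 1.89e-05). RRM2B (-0.59) and POLH (-0.35) fell as well, while XPC had -0.04 ± 0.06 SE and clone means from 44.6 to 48.5 CPM. XPC shares 6.63% of its exonic bases with the opposite-strand gene LSM3 and 23.8% with an antisense gene model of low counts.

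SPATA18 (chromosome 4, 52051331 to 52097292, plus strand) showed the widest difference but rests on few reads. It had 7, 9 and 2 counts in LmnB1_16 and 64, 86 and 139 in LmnB1_6, with 58, 56 and 56 in mCherry_4 and 48, 19 and 16 in mCherry_3. LmnB1_16 was lowest throughout and LmnB1_6 highest on the CPM scale. The gene was 14.2-fold lower in LmnB1_16 than in LmnB1_6 (log2 fold change -3.82 ± 0.49 SE, edgeR adjusted p = 1.04e-05), and its effective length varied 1.76-fold between clones.

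TP53INP1 (chromosome 8, 94925972 to 94949411, minus strand) stood at 12.1, 15.98 and 11.5 CPM in LmnB1_16 and 28.9, 28.1 and 29.5 CPM in LmnB1_6, with 20.8, 17.6 and 20.8 CPM in mCherry_4 and 31.6, 25.3 and 25.6 CPM in mCherry_3. LmnB1_16 was below all other libraries, and LmnB1_6 fell within the range of mCherry_3. TP53INP1 was 2.20-fold lower in LmnB1_16 than in LmnB1_6 (log2 fold change -1.14 ± 0.12 SE, edgeR adjusted p = 1.42e-06). FDXR, the electron donor of mitochondrial steroid and iron-sulphur synthesis, averaged 13.4 ± 1.29 CPM in LmnB1_16 and 23.5 ± 1.79 CPM in LmnB1_6, with 17.8 ± 1.70 and 21.1 ± 1.17 CPM in mCherry_4 and mCherry_3 (SD, n = 3 each). ZMAT3 (-0.65), SESN1 (-0.39) and CCNG1 (-0.41) also fell on the log2 scale between these clones.

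The members that did not pass the test between the LmnB1 clones, beside CDKN1A, MDM2 and XPC, were BTG2 (-0.82), TIGAR (-0.28), PIDD1 (-0.19), TRIAP1 (-0.19), SESN2 (-0.08), PPM1D (-0.01), TP53I3 (0.01), PLK2 (0.05) and PLK3 (0.41). PIDD1 overlaps RPLP2, an abundant ribosomal gene on the opposite strand, over 1.82% of its exonic bases.

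**Figure D4:**
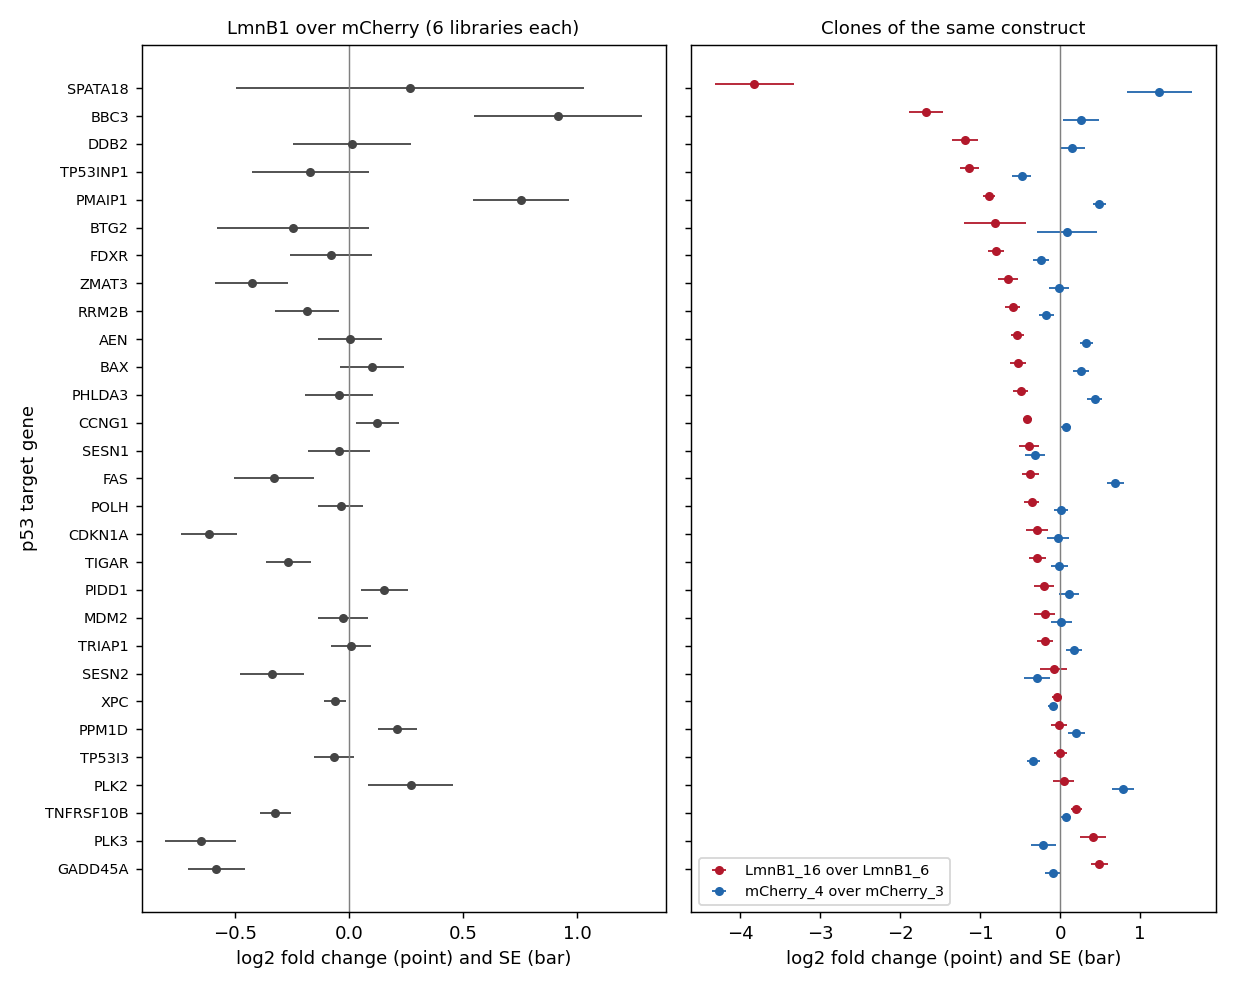
Log2 fold change (points) with SE (bars) of the 29 p53 target genes, for LmnB1 over mCherry on the left and for the clones of each construct on the right, LmnB1_16 over LmnB1_6 in red and mCherry_4 over mCherry_3 in blue, ordered by the red values. The red points run from -3.82 for SPATA18 to 0.49 for GADD45A, and 24 of 29 are negative.

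MDM4, the other inhibitor of p53, had clone means from 20.5 to 24.2 CPM and a construct log2 fold change of 0.16 ± 0.08 SE (edgeR adjusted p = 0.157). The p53 protein was not measured.

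Of 27 genes that regulate p53, 25 were tested, 3 rose and 3 fell in LmnB1, which is 12% each way beside 8.58% and 9.25% of all genes (median log2 fold change 0.11, against 0.00 for all genes). With counts summed per clone, or with clone as a random effect, 0 of the 25 were called. The higher ones were TRIM24 (0.38), a ubiquitin ligase of p53, USP28 (0.51), a deubiquitinase, and WRAP53 (0.61), which acts in telomerase trafficking. The lower ones were PPP1R13B (-0.90) and TP53BP2 (-0.19), members of the ASPP family that bind p53, and the ubiquitin ligase gene RCHY1 (-0.27). PPP1R13B averaged 11.04 ± 0.996 and 11.3 ± 0.961 CPM in LmnB1_16 and LmnB1_6, against 16.2 ± 1.67 and 25.6 ± 2.28 CPM in mCherry_4 and mCherry_3 (SD, n = 3 each).

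Of 42 further p53 targets outside the 30, 39 were tested, 2 rose and 10 fell in LmnB1, which is 5.13% and 25.6% beside 8.58% and 9.25% of all genes. With counts summed per clone, edgeR called 0 of the 39, and with clone as a random effect limma called 3, LIF higher and CDIP1 and FUCA1 lower. Their median log2 fold change was -0.20. LIF, a cytokine gene, rose (0.93), with 170.2 ± 19.96 and 175 ± 15.7 CPM in LmnB1_16 and LmnB1_6, against 106 ± 1.97 and 74.9 ± 12.5 CPM in mCherry_4 and mCherry_3 (SD, n = 3 each), and so did PANK1 (0.69), a coenzyme A synthesis gene. Among those that fell were CDIP1 (-1.87), PTCHD4 (-1.76), the death receptor gene TNFRSF10A (-1.45), CYFIP2 (-1.31), the fucosidase gene FUCA1 (-0.99), ALDH4A1 (-0.48), TRAF4 (-0.43), SUSD6 (-0.30) and GPX1 (-0.27). Between the LmnB1 clones 11 of these 39 were higher and 9 lower in LmnB1_16 (28.2% and 23.1%, beside 17.8% and 16.6% of all genes). Their median there was 0.00, where that of the 29 members was -0.37. The difference between the lists was not tested.

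Of 20 cell cycle genes repressed through p21 and DREAM, CDC25C (0.68) and MCM5 (0.49) rose in LmnB1 and 0 fell, which is 10% higher beside 8.58% of all genes, with a median log2 fold change of 0.50. With counts summed per clone, or with clone as a random effect, 0 of the 20 were called. Against mCherry_4 alone the median was 0.10 in LmnB1_16 and 0.08 in LmnB1_6, and against mCherry_3 it was 1.05 and 1.00. CDKN1A was lower against either control clone, with nearly equal fold changes. Whether its level relates to that of these cell cycle genes was not tested.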

How the data were processed

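Per the file headers, each library came with a gene-level table in which the authors deposited estimated counts, TPM, and lengths and effective lengths (signal, in bases). The tools listed in the submitters' processing notes are STAR, Salmon and DESeq2, with no version, on GRCh38 (hg38). The authors' deposited estimated counts were rounded to whole numbers here. Low-count genes were removed with filterByExpr by clone (minimum count 10, minimum total 15), leaving 15388 genes, with TMM scaling (0.948 to 1.06). Tests were edgeR 4.0.16 quasi-likelihood (glmQLFit, glmQLFTest; R 4.3.3), Benjamini-Hochberg adjusted over all these genes, with calls at an adjusted p under 0.05. The construct was tested on 6 against 6 libraries (biological coefficient of variation 0.262) and the clones as 4 groups (0.0842). The SE was computed as the log2 fold change divided by the root of the F statistic. Since the 3 replicates of a clone share that clone, p-values of the clone contrasts reflect library spread alone. The construct test took 6 libraries per construct as independent, although they come from 2 clones. Its spread mixes differences between clones with differences between libraries. The authors' deposited TPM gave levels between genes and, as log2(TPM + 0.5) in limma 3.58.1, an alternative. Further alternatives were DESeq2 1.42.0, other scalings and filters, a replicate block, and libraries or clones left out. Gene positions and exon overlaps come from GENCODE 29, which may differ from the annotation used for counting. The tests were run on simulated counts with the spread of the clone fit and no difference between clones of a construct. Those counts could not check how the construct test treats clones. Named were all members, MDM4 and LMNB1, and the called genes of the p53 regulator, further target and DREAM lists. Library values of BBC3, DDB2, SPATA18 and TP53INP1 go beyond that rule and were chosen after they were seen. Some results that this rule covers are not reported here. Members and lists were chosen with earlier results of these data known.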

Additional observations from a re-analysis of the deposited data

Results flagged for a closer look

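In 5 of 62 groups of 6 libraries, 1 library stood far from the others by the size of its gap to the nearest one. Chance flags about 1 group in 20 where all 6 libraries share 1 mean. Each group here joins 2 clones, so the count cannot be read against that rate. The flagged libraries were RRM2B in mCherry_3 replicate 1 (66.7 CPM, high), XPC in LmnB1_6 replicate 2 (48.03 CPM, high) and in mCherry_4 replicate 2 (42.9 CPM, low), BTG2 in LmnB1_6 replicate 3 (9.03 CPM, high) and CCNG1 in mCherry_3 replicate 2 (93.2 CPM, low). None of these genes was called between the constructs by edgeR.

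The effects of the LmnB1 clones against the same mCherry libraries differed, by the edgeR contrast of the clones, for 17 members and for LMNB1. The log2 fold change LmnB1_16 over LmnB1_6 was -3.82 for SPATA18, -1.68 for BBC3, -1.19 for DDB2, -1.14 for TP53INP1, -0.89 for PMAIP1 and -0.81 for FDXR. It was -0.65 for ZMAT3, -0.59 for RRM2B, -0.53 for AEN, -0.53 for BAX, -0.49 for PHLDA3, -0.41 for CCNG1, -0.39 for SESN1, -0.37 for FAS and -0.35 for POLH. TNFRSF10B (0.20) and GADD45A (0.49) were higher in LmnB1_16, and LMNB1 was lower (-0.24).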

How the results depend on the processing

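Counts of called members were computed under other scalings (DESeq2 size factors, total counts), filters (none, or at least 1 CPM in at least 3 libraries), tools (DESeq2, limma on TPM), a replicate block, and libraries or clones left out. Between the constructs (1 higher, 4 lower), members higher numbered 0 without clone LmnB1_6, 5 without LmnB1_16, 0 without mCherry_3 and 3 without mCherry_4, and members lower 9 without LmnB1_6 and 2 without mCherry_3. With counts summed per clone, or with clone as a random effect in limma, 0 were higher and 0 lower; the cause was not tested. Leaving out 1 library gave 0 to 2 higher and 4 to 8 lower between the constructs (all genes 3.94% to 9.5% and 4.92% to 10%). Between LmnB1_16 and LmnB1_6 it gave 1 to 3 higher and 14 to 18 lower (all genes 15% to 17.9% and 13.6% to 16.5%). With limma on TPM, 6 were higher in LmnB1_6 over mCherry_3 (all genes 15.1%) and 5 lower in LmnB1_16 over mCherry_4 (all genes 4.41%). In mCherry_4 over mCherry_3 (2 lower), 6 were lower on total counts, 4 without a filter and 5 on TPM (all genes 29.7%, 10.2% and 21.3%). The main tests did not take the replicate numbers to pair the samples. The 18 correlations of same-numbered deviations ran from -0.0541 to 0.181. Those over 0.1 joined the replicate 3 libraries of LmnB1_16, LmnB1_6 and mCherry_4 (0.119 to 0.181), above the highest between different numbers (0.0923). With the replicate block, 0 members were higher between the constructs (PMAIP1, edgeR adjusted p = 0.0587), and no other count of called members moved by over 1.5 times. Adjusted p over the other scalings, filters and tools and the block ran from 4.88e-05 to 0.0147 for CDKN1A, from 0.00031 to 0.0251 for GADD45A, from 0.000923 to 0.0272 for PLK3 and from 0.000119 to 0.0245 for TNFRSF10B. Leaving out a clone ended the edgeR calls of CDKN1A (0.0615 without mCherry_3), TNFRSF10B (0.0624 without LmnB1_6), PLK3 (0.16 without mCherry_3) and GADD45A (0.116 without mCherry_3, 0.0668 without LmnB1_6). The sign of some members that were not called between the constructs turned in the settings below; the cause was not tested. Without clone LmnB1_16 the log2 fold change was 0.067 for MDM2, 0.14 for SESN1, 0.082 for RRM2B, 0.27 for FDXR, 0.11 for BTG2, 0.18 for PHLDA3, 0.29 for TP53INP1 and 0.13 for POLH. Without clone LmnB1_6 it was -0.15 for BBC3, -0.18 for BAX, -0.70 for DDB2, -0.28 for AEN, -2.63 for SPATA18, -0.091 for CCNG1 and -0.086 for TRIAP1, of which DDB2 (edgeR adjusted p = 0.0245) and SPATA18 (0.0404) were called. Without clone mCherry_3 it was -0.020 for BAX, 0.12 for TP53I3, 0.13 for SESN1, -0.057 for DDB2, 0.051 for FDXR, 0.094 for TP53INP1, -0.066 for PLK2, -0.15 for AEN, -0.22 for SPATA18 and -0.073 for TRIAP1. Without clone mCherry_4 it was 0.059 for FAS and 0.19 for PHLDA3. On total counts it was -0.0077 for DDB2, -0.011 for AEN and -0.013 for TRIAP1, on TPM -0.26 for DDB2, -0.052 for AEN and -0.035 for TRIAP1, and with clone as a random effect -0.097 for DDB2 and -0.66 for SPATA18. Leaving out 1 library gave ranges of -0.064 to 0.077 for AEN, -0.14 to 0.13 for DDB2, -0.19 to 0.021 for FDXR, -0.081 to 0.027 for MDM2, -0.13 to 0.039 for PHLDA3, -0.12 to 0.0075 for POLH, -0.12 to 0.034 for SESN1, -0.15 to 0.53 for SPATA18 and -0.027 to 0.059 for TRIAP1. Depth limits SPATA18, with 2 to 9 counts in a LmnB1_16 library, and GDF15.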
